A study of Bos taurus with 4 samples.

Results

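The SLC25 carriers measured here were the genes whose symbol in the array's platform annotation begins with SLC25A followed by a digit. There were 37 of them among 15229 named genes, read by 65 of 43794 probes, and the probe of highest mean signal stood for a gene with several. All 37 symbols are current in the reference gene table. Messenger RNA came from pools of early blastocysts of Bos taurus, made in vitro with oocytes from Holstein heifers. Every one of the 4 heifers gave oocytes at 11 and again at 14 months of age, and her pair of pools shared a two-colour array. The 4 11-month pools were compared with the 4 14-month pools. Both received the same ovarian stimulation with FSH after progesterone treatment, the same in vitro maturation, fertilization and culture, semen of adult bulls, and collection 168 hours after fertilization. The 11-month pool was labelled with Cy5 in replicates 1 and 2 and with Cy3 in replicates 3 and 4. Pool size is not stated in the labels used here. Since the 2 pools of a heifer were collected at different times, time of collection and donor age cannot be told apart.

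Carriers of the SLC25 family are membrane proteins, nearly all of the inner mitochondrial membrane, that move metabolites between the cytosol and the mitochondrial matrix. Different members exchange ADP for ATP, bring in phosphate, carry reducing equivalents by way of malate and aspartate, and pass amino acids, acylcarnitines, cofactors, glutathione and iron. The cleavage-stage bovine embryo relies on mitochondria of oocyte origin for its ATP, and its blastocyst uses both oxidative phosphorylation and glycolysis. The roles named below are those known for human or rodent proteins, some also for the bovine ones.

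All ratios are log2 of 11 over 14 months from the authors' deposited series matrix. Values above 0 mean more signal at 11 months, and errors are SDs over the 4 heifers. Signals are log2 scanner intensities of each channel after background correction and normalization. They come from the scanner files and need not differ by exactly the deposited ratio. Signals of different probes are not comparable with each other. Signal above background means a value more than 2 SD over the mean of the 153 negative control spots in that channel. In the 11-month pools 65.0% to 71.6% of all probes were above background, against 63.6% to 68.1% in the 14-month pools. All 5 trophectoderm markers (CDX2, GATA3, TFAP2C, KRT8, KRT18) and all 3 inner cell mass markers (NANOG, POU5F1, SOX2) were above background in every pool. Of 7 cumulus and granulosa markers 3 were above background in all 11-month pools and 4 in all 14-month pools, and of 5 sperm and testis markers 2 and 1 were. NANOG, a pluripotency factor, was at 1.12 ± 0.37, with an adjusted p of 0.328 in limma. In that fit no other marker of these lists passed at an unadjusted p under 0.05. The other inner cell mass markers did not follow NANOG, with POU5F1 at 0.04 ± 0.13 and SOX2 at -0.30 ± 0.77. With a term for dye orientation added to the limma fit, the adjusted p of NANOG was 0.024. The part of cell makeup in the carrier values was not tested. In a pool, fewer cells of a type and less RNA per cell cannot be told apart.

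Of the 37 carriers, 35 had a mean signal above the negative controls and were tested. The exceptions were SLC25A41, an ATP-Mg and phosphate carrier, and SLC25A46, an outer membrane protein that acts on mitochondrial shape. These were above background in no pool of either age. Signals above background in all 8 pools were found for 30 carriers.

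No carrier passed an adjusted p of 0.05 in limma's moderated test with Benjamini-Hochberg adjustment over all 36447 tested probes, where 0% of genes did, and the lowest adjusted p of a carrier was 0.401. At an unadjusted p under 0.05, SLC25A26 was higher and SLC25A5 lower in the 11-month pools. That is 1 carrier in each direction out of 35, against a background of 5.14% of all 13530 tested genes higher and 4.21% lower. Both shares were thus no higher among carriers than among all genes. The median ratio over the 35 carriers was 0.07, against 0.02 over all tested genes, and 19 of the 35 had a mean above 0. The median absolute ratio was 0.18 for the carriers and 0.12 for all genes. None reached a mean change of 1.5-fold, which 1.81% of all genes did. For 27 carriers the 95% confidence interval of the fold change lay within 1.5-fold in both directions. The intervals are for single carriers, unadjusted. They reached further for SLC25A5, SLC25A6, SLC25A13, SLC25A20, SLC25A22, SLC25A25, SLC25A26 and SLC25A30, the extremes being 0.522-fold for SLC25A22 and 1.62-fold for SLC25A6.

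**Figure D1:**
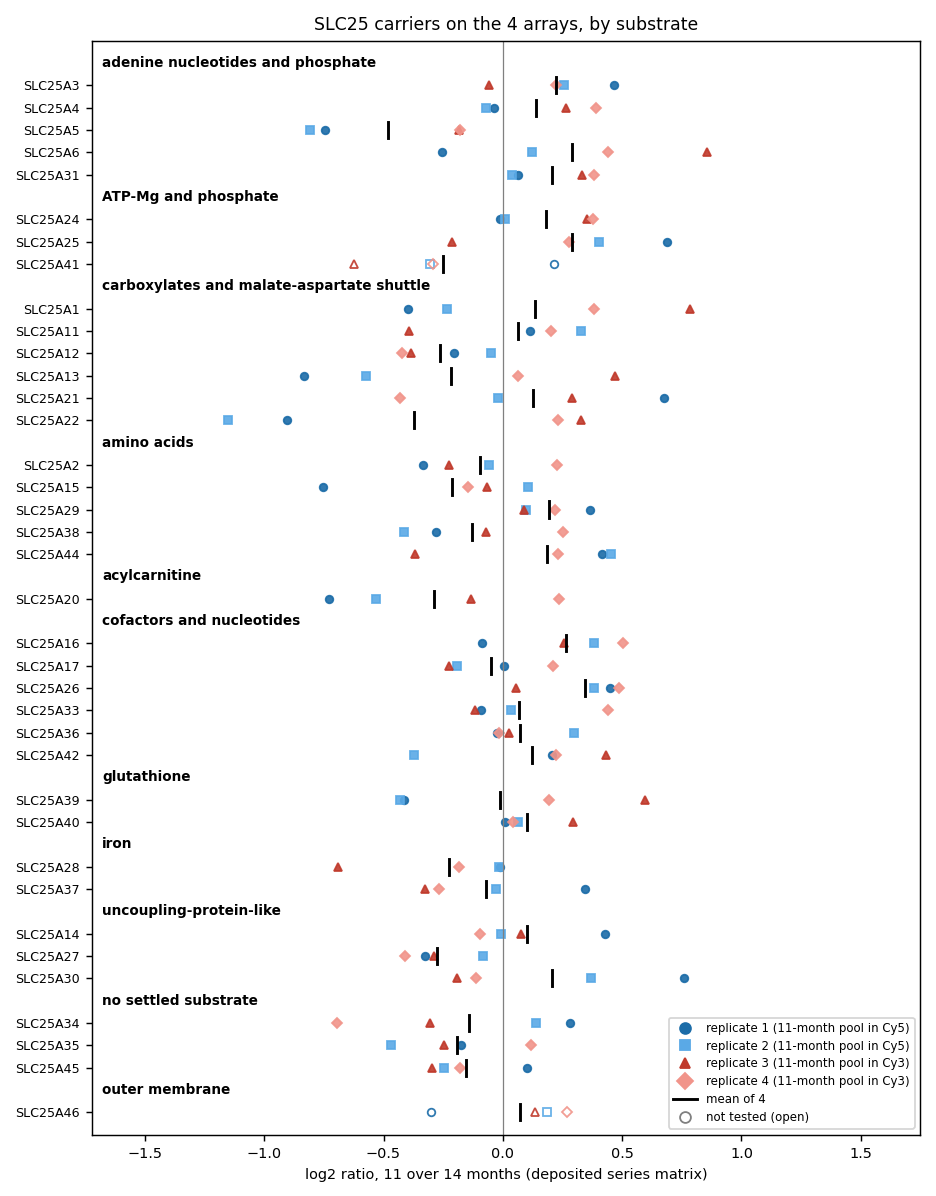
Log2 ratio of 11 over 14 months (horizontal axis) of all 37 carriers, grouped by substrate, with 1 symbol for each of the 4 arrays and a bar for their mean; open symbols mark the 2 carriers that were not tested. SLC25A5 lies left of 0 and SLC25A26 right of 0 on all 4 arrays, while most other carriers have points on both sides.

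The carriers of adenine nucleotides and phosphate supply the ATP synthase and export its product. SLC25A5, the ADP/ATP carrier of proliferating cells also called ANT2, was at -0.75, -0.81, -0.18 and -0.18 in replicates 1 to 4. The signal of that probe was 14.32, 14.47, 14.00 and 13.82 in the 11-month pools, against 14.90, 14.90, 14.48 and 14.50 in the 14-month pools. All 4 heifers had the lower signal in the 11-month pool, and the highest 11-month value lay just under the lowest 14-month value. The mean was -0.48 ± 0.34 (SD, n = 4), or 0.717-fold with an interval of 0.564 to 0.912, at an unadjusted p of 0.0122 and an adjusted p of 0.401 in limma. With the scanner files normalized by loess the arrays were closer together, at -0.59, -0.43, -0.48 and -0.67. A second SLC25A5 probe did not show the difference. It was at 0.38, 0.27, -0.16 and -0.06, with a mean of 0.11 ± 0.26 and an unadjusted p of 0.455 (adjusted 0.885) in limma. For this probe the sign followed the dye orientation, so that the direction for SLC25A5 rests on 1 of its 2 probes. The unadjusted p rose above 0.05 without replicate 1 or without replicate 2, the largest being 0.067, and the mean stayed between -0.58 and -0.37 in the fits that left out 1 replicate.

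The other ADP/ATP carriers had means above 0, and none passed at an unadjusted p under 0.05. SLC25A4, the form of heart and skeletal muscle, was at -0.04, -0.07, 0.27 and 0.39, with a mean of 0.14 ± 0.23. SLC25A6, also called ANT3, was at -0.25, 0.12, 0.86 and 0.44, with a mean of 0.29 ± 0.47. Its signal was 10.40, 10.77, 10.04 and 9.79 in the 11-month pools, against 10.73, 10.66, 9.13 and 9.35 in the 14-month pools. The groups overlapped, and replicates 1 and 2 had the higher levels at both ages. SLC25A31, the ADP/ATP carrier of male germ cells, was at 0.06, 0.04, 0.33 and 0.38, above 0 in all 4 heifers. Its mean was 0.20 ± 0.18, and it ran from 0.02 to 0.26 over the 13 alternative fits described below. Its signal averaged 7.15 ± 0.14 in the 11-month pools and 7.03 ± 0.17 in the 14-month pools (SD, n = 4 each), with overlapping values. Its dimmer probes were at 0.06 ± 0.12 and 0.15 ± 0.16, above 0 in 2 and 3 of 4 heifers. SLC25A4, SLC25A5 and SLC25A6 are close paralogs, and whether a probe of one also reads another was not tested. The phosphate carrier SLC25A3, which also brings copper into the matrix, was at 0.46, 0.26, -0.06 and 0.22, with a mean of 0.22 ± 0.22. Its signal averaged 12.16 ± 0.33 in the 11-month pools and 11.93 ± 0.30 in the 14-month pools.

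**Figure D2:**
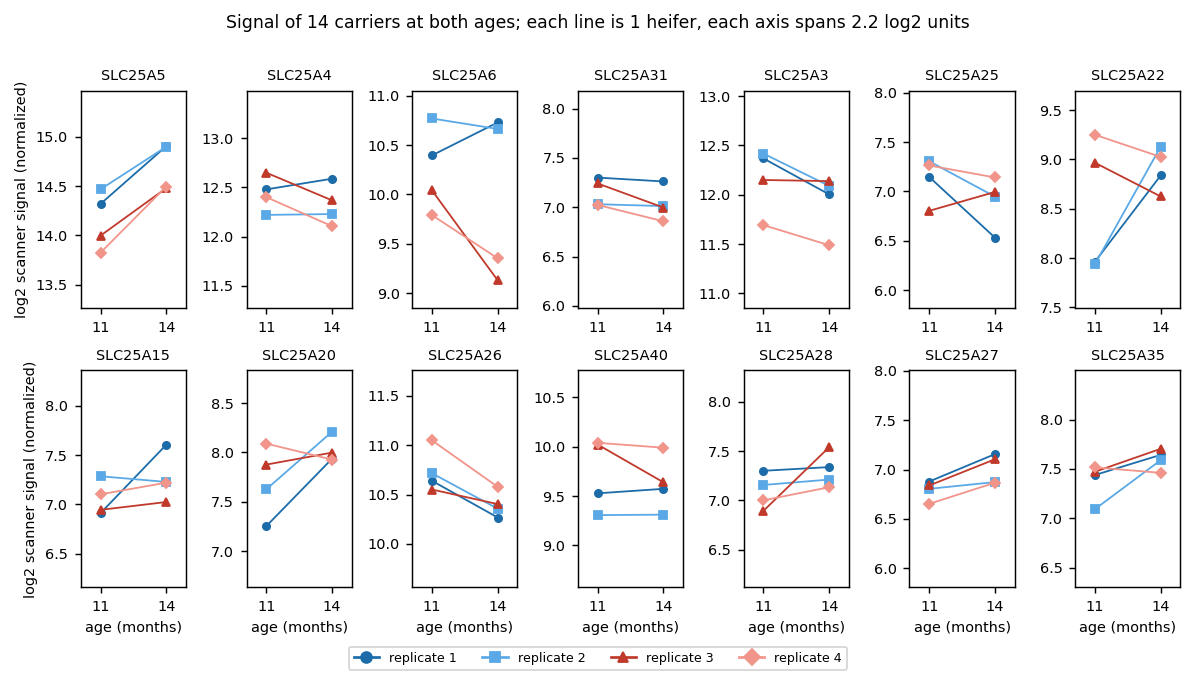
Normalized log2 scanner signal (vertical axes, each spanning 2.2 log2 units) of 14 carriers in the 11-month pool (left) and the 14-month pool (right), with 1 line for each heifer. All 4 lines run upward for SLC25A5 and downward for SLC25A26, and the lines cross or run both ways for carriers such as SLC25A22 and SLC25A6.

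Among the ATP-Mg and phosphate carriers, SLC25A24 and SLC25A25 shift the net adenine nucleotide content of mitochondria under the control of calcium. SLC25A25 was at 0.69, 0.40, -0.21 and 0.28, above 0 in 3 of 4 heifers, with a mean of 0.29 ± 0.38. It was above background in all 4 pools at 11 months and in 3 of 4 at 14 months. Its lowest 14-month signal, 6.53, was in replicate 1, which had the largest ratio. SLC25A24 had a mean of 0.18 ± 0.21, with the difference in replicates 3 and 4. A second probe of SLC25A24 was at -0.27 ± 0.52. Neither carrier passed at an unadjusted p under 0.05.

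Among the carriers of carboxylates and of the malate-aspartate shuttle, 0 of 6 passed at an unadjusted p under 0.05 in either direction, and the median was -0.08. Over all tested genes 9.35% passed in either direction. SLC25A22, a glutamate carrier, had the widest spread between heifers of all carriers, at -0.90, -1.15, 0.33 and 0.23, below 0 in the first pair of replicates and above it in the second. Its mean was -0.37 ± 0.76. The signal was 7.96, 7.94, 8.97 and 9.25 in the 11-month pools, against 8.84, 9.13, 8.62 and 9.03 in the 14-month pools. The 11-month pools thus held both the lowest and the highest values. A dimmer SLC25A22 probe was at 0.23 ± 0.33. SLC25A13, or citrin, is an aspartate/glutamate carrier of the shuttle and split in the same way, at -0.83, -0.57, 0.47 and 0.06. The other carrier of that step, SLC25A12 or aralar, was below 0 in all 4 heifers, from -0.42 to -0.05, with a mean of -0.27 ± 0.17, an unadjusted p of 0.066 and an adjusted p of 0.583 in limma. In the 5 fits on ratios from the scanner files SLC25A12 was at -0.30 to -0.23, with limma's unadjusted p at 0.021 to 0.038 and its adjusted p at 0.427 to 0.877. In the fits that left out 1 replicate SLC25A12 was at -0.34 to -0.21, with limma's unadjusted p reaching 0.193. Its partner in the shuttle, the oxoglutarate/malate carrier SLC25A11, was at 0.06 ± 0.32. SLC25A1, which exports citrate for fatty acid and sterol synthesis, was at 0.13 ± 0.55, and a second probe of it was at 0.28 ± 0.52. The oxodicarboxylate carrier SLC25A21, of lysine and tryptophan breakdown, was at 0.13 ± 0.47.

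Of the 5 carriers of amino acids none passed at an unadjusted p under 0.05, against 9.35% of all tested genes in either direction. The ornithine carrier of the urea cycle, SLC25A15, was at -0.75, 0.11, -0.07 and -0.15. Its mean of -0.21 ± 0.37 leaned on replicate 1 and was -0.03 without it. A dimmer SLC25A15 probe was at 0.01 ± 0.24. SLC25A2, a second ornithine carrier, was at -0.10 ± 0.24 and was above background in 1 of 4 pools at 11 months and 2 of 4 at 14 months. SLC25A29, a carrier of basic amino acids, was above 0 in all 4 heifers, from 0.09 to 0.36. Its mean was 0.19 ± 0.13, with the smallest SD of the tested carriers. Over the 13 alternative fits described below the mean ran from 0.0055 to 0.23. The branched-chain amino acid carrier SLC25A44 was at 0.18 ± 0.38, and SLC25A38, which brings in glycine for heme synthesis, was at -0.13 ± 0.29. Both dimmer probes of SLC25A38 had means above 0, at 0.18 ± 0.34 and 0.14 ± 0.26.

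The carnitine/acylcarnitine carrier SLC25A20 admits long-chain fatty acids to beta-oxidation. It was at -0.73, -0.53, -0.14 and 0.24, lower at 11 months in 3 of 4 heifers, with a mean of -0.29 ± 0.43 and an unadjusted p of 0.123 (adjusted 0.672) in limma. The signal was 7.25, 7.62, 7.88 and 8.09 in the 11-month pools, against 7.93, 8.21, 8.00 and 7.93 in the 14-month pools. The groups overlapped, and the lowest values were those of 11-month pools.

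At an unadjusted p under 0.05 in limma, 5.14% of all tested genes were higher and 4.21% lower. In the group of cofactors and nucleotides, 1 of 6 tested carriers was higher and 0 were lower at that threshold. This was SLC25A26, which brings S-adenosylmethionine, the methyl donor, into mitochondria. It was at 0.45, 0.38, 0.05 and 0.49 in replicates 1 to 4. The signal was 10.64, 10.72, 10.55 and 11.05 in the 11-month pools, against 10.27, 10.36, 10.40 and 10.58 in the 14-month pools. All 4 heifers had the higher signal at 11 months, least in replicate 3, and the groups overlapped slightly. The mean of 0.34 ± 0.20 is 1.27-fold with an interval of 1.04 to 1.56, at an unadjusted p of 0.0267 and an adjusted p of 0.469 in limma. Without replicate 1, 2 or 4 the unadjusted p was above 0.05, at most 0.091, with means of 0.30 to 0.44 over the fits that left out 1 replicate. SLC25A26 had 7 tested probes, and the brightest gave the largest ratio. The remaining 6 had means of -0.14 to 0.20, and none of them passed at an unadjusted p under 0.05. The median over all its probes, taken on each array and averaged over the 4 arrays, was 0.09.

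The coenzyme A carriers SLC25A16 and SLC25A42 were at 0.26 ± 0.25 and 0.12 ± 0.35. SLC25A42 was above background in 3 of 4 pools at 11 months and in none at 14 months, so that no level can be given for the 14-month pools. Its ratios were of both signs, and its adjusted p was 0.882 in limma. SLC25A17, a peroxisomal member that carries cofactors, was at -0.05 ± 0.20. The pyrimidine nucleotide carriers SLC25A33 and SLC25A36 were at 0.07 ± 0.26 and 0.07 ± 0.15.

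**Figure D3:**
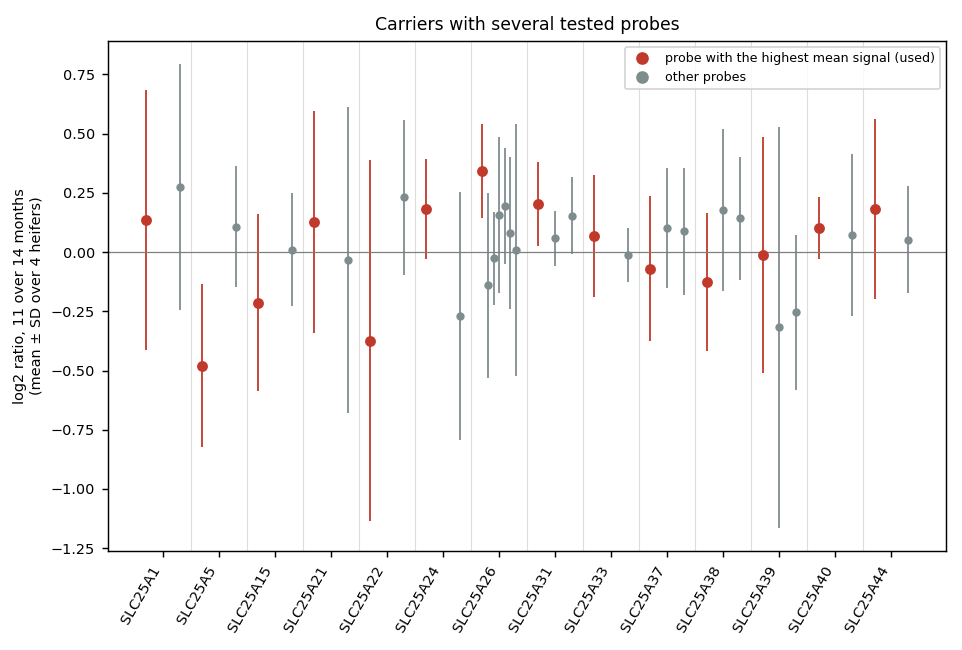
Mean log2 ratio of 11 over 14 months with its SD over 4 heifers for every tested probe of the 14 carriers with several tested probes, the probe used in red and dimmer ones in grey, from brightest to dimmest within a gene. The probes of SLC25A5, SLC25A22 and SLC25A24 lie on opposite sides of 0, and the 7 probes of SLC25A26 run from -0.14 to 0.34.

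Both glutathione carriers were near 0 in the mean. SLC25A40 was at 0.01, 0.06, 0.29 and 0.04, above 0 in all 4 heifers, with a mean of 0.10 ± 0.13. With the scanner files normalized by loess it was at -0.045, -0.005, 0.38 and 0.05. A dimmer SLC25A40 probe was at 0.07 ± 0.34, above 0 in 3 of 4 heifers. SLC25A39 was at -0.01 ± 0.50, below 0 in replicates 1 and 2 and above 0 in replicates 3 and 4, and its other probes were at -0.32 ± 0.85 and -0.25 ± 0.33. The iron carrier SLC25A28, or mitoferrin 2, was at -0.01, -0.02, -0.69 and -0.18, below 0 in all 4 heifers. Its mean of -0.23 ± 0.32 leaned on replicate 3 and was -0.07 without it. SLC25A37, mitoferrin 1 of the erythroid line, was at -0.07 ± 0.31, with both other probes above 0.

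The uncoupling-protein-like carriers included SLC25A27, or UCP4, at -0.32, -0.08, -0.29 and -0.41. All 4 heifers were below 0, with a mean of -0.28 ± 0.14, an unadjusted p of 0.052 and an adjusted p of 0.547 in limma. Its signal was 6.88, 6.80, 6.84 and 6.65 in the 11-month pools, against 7.16, 6.87, 7.10 and 6.87 in the 14-month pools, with a slight overlap. The ratio was -0.04 when mean in place of median foreground intensities were used. SLC25A14, or UCP5, was at 0.10 ± 0.23, and SLC25A30, a kidney member related to it, was at 0.21 ± 0.44. The carriers without a settled substrate all had means below 0, and none passed at an unadjusted p under 0.05. SLC25A35 was at -0.17, -0.47, -0.25 and 0.12, with a mean of -0.19 ± 0.24, SLC25A45 at -0.16 ± 0.18 and SLC25A34 at -0.14 ± 0.44. At 11 months SLC25A34 was above background in 2 of 4 pools and SLC25A45 in 3, against 3 and 2 at 14 months.

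Among the 35 tested carriers 8 had 1 sign on all 4 arrays, 4 higher at 11 months (SLC25A26, SLC25A29, SLC25A31, SLC25A40) and 4 lower (SLC25A5, SLC25A12, SLC25A27, SLC25A28). Over all tested genes 9.35% were higher and 7.04% lower on all 4 arrays, 16.4% together. Taken as Cy5 over Cy3 instead, 7 carriers had 1 sign on all 4 arrays, against a background of 23.8% of genes. Their signal was higher in Cy3 for SLC25A1, SLC25A4, SLC25A13, SLC25A22 and SLC25A39 and in Cy5 for SLC25A30 and SLC25A34. With a dye term for each gene in the limma fit, the orientation term passed an adjusted p of 0.05 for SLC25A22 alone among the carriers, at 0.024, against 2.35% of all genes. This term is shared by the heifers of replicates 1 and 2 against those of replicates 3 and 4, and dye and heifer cannot be told apart in it. The mean over replicates 1 and 2 and the mean over replicates 3 and 4 had opposite signs in 19 of 35 carriers.

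**Figure D4:**
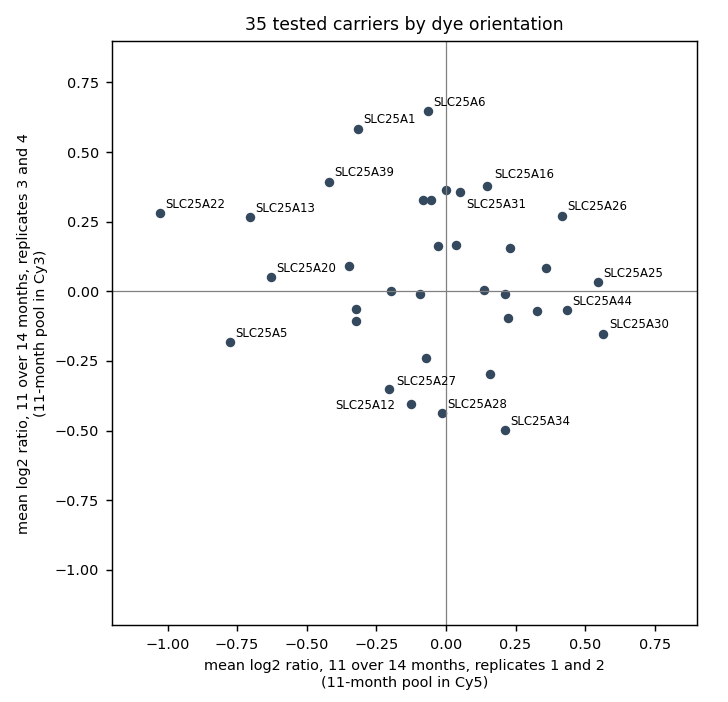
Each point is 1 of the 35 tested carriers, with its mean log2 ratio of 11 over 14 months over replicates 1 and 2 (horizontal) and over replicates 3 and 4 (vertical), which carried opposite dyes. SLC25A26 lies at the upper right and SLC25A5 at the lower left, with SLC25A22, SLC25A13 and SLC25A1 at the upper left. There the sign differs between the 2 pairs of replicates, in which dye and heifer cannot be told apart.

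With the same dye term, SLC25A6, SLC25A25 and SLC25A26 were higher and SLC25A5, SLC25A12, SLC25A20, SLC25A22 and SLC25A27 lower at 11 months, all by unadjusted p under 0.05. Over all tested genes this fit called 9.19% higher and 7.96% lower. None of the carriers passed an adjusted p of 0.05 in it, SLC25A5 being nearest at 0.064, while 0.843% of all genes did. With the 11-month pool in Cy5 SLC25A5 averaged -0.78 and SLC25A26 0.42, and with it in Cy3 they averaged -0.18 and 0.27.

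The array medians over the 35 carriers were -0.01, -0.02, -0.07 and 0.21 in replicates 1 to 4, against 0.04, 0.01, -0.02 and 0.04 over all tested genes, so that replicate 4 stood highest. The SD over heifers ran from 0.13 to 0.76 among carriers with a median of 0.29, against a median of 0.27 for all genes, and it exceeded the size of the mean in 27 of 35. Across the 35 carriers, which are not independent replicates, r was 0.71 for replicates 1 with 2 and 0.47 for 3 with 4, the pairs of like orientation. The 4 pairs of opposite orientation (1 with 3, 1 with 4, 2 with 3, 2 with 4) gave -0.23, -0.09, -0.21 and 0.06. The split by orientation was also seen over all tested probes, at 0.56 and 0.31 for the like pairs and -0.17, -0.17, 0.12 and -0.09 for the opposite ones. Of the 14 carriers with several tested probes, 9 had probes of both signs, or 64.3%, against 57.7% of the 3364 named genes with several tested probes.

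Other genes of mitochondrial transport were measured beside the carriers: uncoupling proteins and carrier homologs with other symbols, the pyruvate carrier, sideroflexins, outer membrane channels, import factors for carriers and calcium uptake proteins. The 31 such genes analysed here were all tested. In limma none of the 31 (0 higher, 0 lower) had an unadjusted p under 0.05, against 5.14% and 4.21% of all tested genes. None of the 31 passed the adjusted threshold, which 0% of all genes did, and their median was -0.04. The smallest p belonged to SFXN1, a mitochondrial serine transporter, at -0.27 ± 0.24, followed by the import receptor TOMM20 at 0.24 ± 0.15, the sideroflexin SFXN4 at -0.23 ± 0.19, the carrier chaperone TIMM10 at -0.24 ± 0.35 and the TIM22 subunit AGK at -0.26 ± 0.43. TOMM20 was above 0 and SFXN4 below 0 in all 4 heifers.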

How the data were processed

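The deposited scanner files give linear intensities of spot and local background in 2 channels, per the file headers, 1 array per file. The authors also deposited a table and a series matrix of normalized log2 ratios; how they were normalized is not stated in the labels or headers. Against background-subtracted, loess-normalized scanner ratios turned to 11 over 14 months by the labelled dyes, the matrix columns correlated at r = 0.986 to 0.993 with slopes of 0.908 to 1.10, which gave their direction and base. Column medians were 0.00853, 0.00336, 0.00104 and 0.0234, and what centring was applied stays unknown. Matrix ratios were fitted with limma 3.58.1 in R 4.3.3 (1 coefficient, the mean over 4 heifers; two-sided; Benjamini-Hochberg). The ratio pairs both ages of a heifer. Residual degrees of freedom were 3, with 5.985 prior ones; an exact sign-flip test of 4 pairs cannot go below 0.125.

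Signals were median intensities after normexp (offset 50), within-array loess and limma's Aquantile step between arrays. Ratios after normexp and loess correlated with the matrix columns at r = 0.914 to 0.989. Their slopes on the matrix were 0.602 to 0.914, and both r and slope were lowest in replicate 4. Probes were kept whose mean log2 signal exceeded the negative controls' mean plus 2 SD, which left out 7347. Symbols came from GEO's platform annotation, which names 21790 probes with 1 symbol each and leaves 22004 unnamed; no coordinates are printed, since no build is given. All carriers could be named; array values were given for those with an unadjusted p under 0.05, the ADP/ATP and phosphate carriers, and the largest absolute mean of each substrate group. Array values of SLC25A13 and the dimmer probes described were chosen after being seen. Of other transport genes the 5 with the smallest p were named. Members and lists were chosen with earlier results of these data known. The test was tried on simulated data. Plots used matplotlib 3.10.9 under Python 3.11.15.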

Additional observations from a re-analysis of the deposited data

Results flagged for a closer look

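In 1 of 40 genes checked, 35 carriers and 5 other transport genes, 1 heifer stood apart from the other 3. SLC25A36, a pyrimidine nucleotide carrier, was at -0.02, 0.30, 0.02 and -0.02 in replicates 1 to 4, and the gap below replicate 2 was 0.850 of the whole range, above Dixon's critical value for 4 samples. Chance alone marks about 1 in 20 such groups.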

How the results depend on the processing

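The count of carriers past an adjusted p of 0.05 was 0 under all 13 alternatives run, and the median over the carriers was -0.0037 with mean foreground intensities and 0.01 to 0.08 under the other 12. At an unadjusted p under 0.05 there was 1 carrier higher and 1 lower in the 11-month pools. With ratios from the scanner files SLC25A12 joined SLC25A5 among those lower: 3 with normexp and loess (SLC25A27 too; 5.15% of all genes lower), 2 with background subtraction (4.94%), 2 with no background correction (5.22%) and 2 with median centring (2.42%), which had 0 higher (3.45%). With mean foreground intensities 5 of 35 were higher (SLC25A3, SLC25A4, SLC25A16, SLC25A25, SLC25A26) and 4 lower (SLC25A5, SLC25A12, SLC25A20, SLC25A35), against 5.29% and 6.08% of all genes. Without a filter on dim probes 2 were lower (3.94%), and with a dye term for each gene 3 were higher (9.19%) and 5 lower (7.96%). With the median over the probes of a gene 0 were higher (4.47%), and the 1 lower was SLC25A27 in place of SLC25A5 (3.84%). Leaving out 1 replicate gave 0 to 3 higher and 0 to 3 lower, against 2.1% to 5.77% and 1.91% to 5.48% of all genes. The cause of these moves was not tested. With no replicate block, the channels being fitted as separate samples, the 2 called were SLC25A26, higher (2.14% of all genes), and SLC25A5, lower (3.45%). SLC25A5 was below 0 and SLC25A26 above 0 in all 13, at -0.59 to -0.19 and 0.09 to 0.44. Of the 35 carriers, 4 changed sign with mean foreground intensities, 3 each with the median over probes or without replicate 1, 2 or 3, and 2 without replicate 4; SLC25A5 and SLC25A26 were not among them. The number of arrays, 4, limits every value, and signals of SLC25A2, SLC25A25, SLC25A34, SLC25A42 and SLC25A45 lay near background.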

Other observations

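A carrier listed in the platform annotation under its older symbol MCART1 was outside the rule for members. It is now SLC25A51, which brings NAD+ into mitochondria, and it was looked up after its values were seen. Its brighter probe was at 0.84, 0.45, 0.28 and 0.61 in replicates 1 to 4, above 0 in all 4 heifers, with a mean of 0.55 ± 0.24 (SD, n = 4). The unadjusted p was 0.003 and the adjusted p 0.348 in limma. A second probe was at 0.34, 0.31, -0.14 and 0.11, with a mean of 0.16 ± 0.22. The means of both probes were above 0, but the adjusted threshold was not reached by either.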
